A study of Rattus with 6 samples.

Results

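The Krüppel-like factors (KLFs) described here are the 10 genes Klf2, Klf3, Klf4, Klf5, Klf6, Klf7, Klf9, Klf10, Klf13 and Klf15, chosen by gene name from the 54012 genes of the deposited expression table. The choice did not use their measured values, and all 10 were found. KLFs are transcription factors that bind GC-rich and CACCC-type DNA through zinc fingers at the end of the protein, and they differ mainly in the stretch before the fingers, which recruits coactivators or corepressors. In the vessel wall, KLF4 and KLF5 are known for their part in the switch of smooth muscle cells from the contractile to the proliferative state, KLF2 and KLF4 for keeping endothelium quiescent, and KLF15 for restraining growth and matrix production. Several KLFs are also immediate early genes, whose transcripts come and go within hours of a stimulus.

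The si-CDCP1 cultures were given an siRNA against CDCP1 and carry a knockdown genotype label (3 libraries), and the si-NC cultures were given a control siRNA and carry a wild-type label (3 libraries). Both groups were primary cultures labelled as vascular smooth muscle cells from aorta, which give the artery its tone, and both received Ang II (angiotensin II, a peptide hormone that constricts vessels) after the siRNA. No culture without Ang II was analysed here, so the values describe KLF transcripts under Ang II only. CDCP1 is a transmembrane glycoprotein phosphorylated by Src family kinases. Per the series title, the study concerns its role in narrowing of the carotid artery and in mitochondrial autophagy. The labels do not say whether replicates came from separate animals, so the p-values cover the spread from library to library, and this spread may be technical.

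Reads in the listed genes numbered between 16050517 and 19771638 per library. The labels name rat, whereas the values are given for mouse genes on build mm10, so a low value need not mean a scarce transcript. Cdcp1 itself had 0, 5 and 0 reads in the si-CDCP1 libraries and 2, 2 and 1 reads in the si-NC libraries, so the knockdown could not be checked. Of 10 smooth muscle markers 3 averaged at least 1 FPKM (read fragments of a gene, corrected for its length and for library size). Acta2 was between 34.4 and 64.2 FPKM, Cald1 between 14.8 and 18.4 FPKM and Smtn between 8.02 and 10.3 FPKM. The other 7 averaged less, and of these Tagln, Cnn1 and Myh11 were at or under 0.216 FPKM in every library. The labelled cell type was thus not borne out by most of these markers in the deposited values, on which the species mismatch bears as well. The summed FPKM of 7 endothelial markers was between 0.802 and 0.874 in si-CDCP1 and between 0.676 and 0.744 in si-NC, without overlap. These markers did not move together. Tek was higher in every si-CDCP1 library (0.295 FPKM on average, against 0.180 in si-NC), Kdr lower in every one (0.112 against 0.165), and Vwf overlapped. All 7 averaged under 1 FPKM and were not tested in limma, with Cdh5 and Emcn at 0 reads in every library. The part of the endothelial markers in the KLF values was not tested. The si-CDCP1 replicate 3 library stood apart: its Pearson correlation with the others on the log2 scale was between 0.979 and 0.983, against 0.988 to 0.991 among the other 5. The log2 difference of each of the 10 members below is therefore given with and without it.

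Klf4 had by far the highest FPKM of the 10 and had higher values in si-CDCP1, whereas Klf2, its close relative, had lower values there. Klf9 was also higher in every si-CDCP1 library than in any si-NC library, as were Klf3 and Klf6, and Klf7 was lower in every one. Klf5, Klf10, Klf13 and Klf15 overlapped between the groups. No member passed the Benjamini-Hochberg (BH) adjusted threshold of 0.05 in limma's moderated test on log2(FPKM + 1), and no gene of the 12080 tested did (background 0%).

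**Figure D1:**
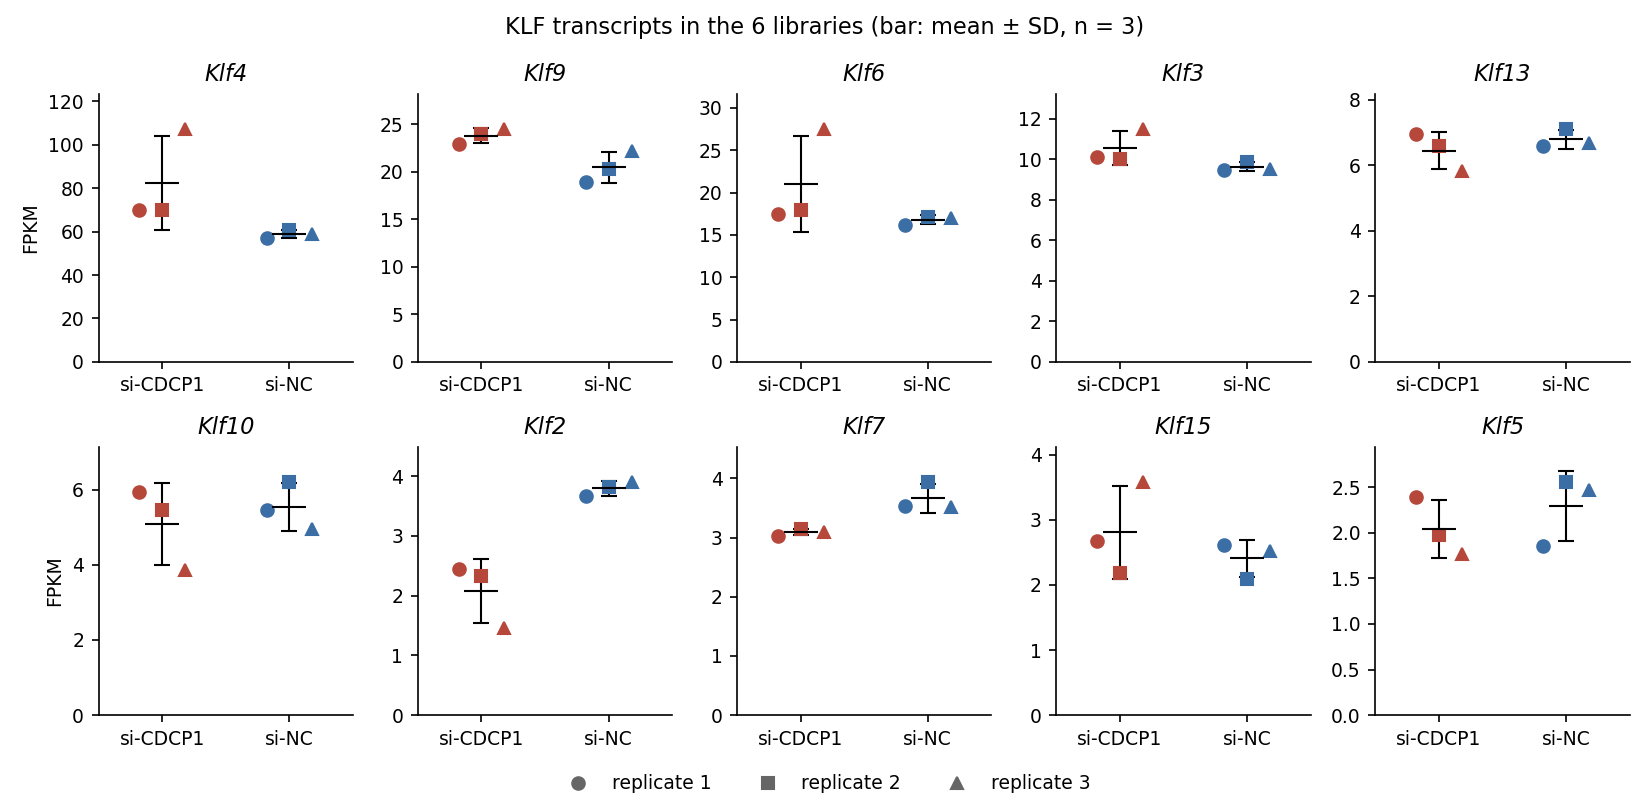
FPKM of the 10 KLF genes (vertical axes, each from 0) in the 3 si-CDCP1 libraries and the 3 si-NC libraries, ordered by the si-NC mean. Markers show the replicate number, and the bars the mean ± SD. Klf4 lies between 69.8 and 107.5 FPKM in si-CDCP1 and between 57.2 and 60.8 FPKM in si-NC, and Klf2 lies lower in all 3 si-CDCP1 libraries.

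Klf4 encodes the factor known to repress contractile genes in smooth muscle by opposing serum response factor and myocardin. The gene (ENSMUSG00000003032, mm10 chromosome 4, 55527143 to 55532466, minus strand) was at 69.8, 69.9 and 107.5 FPKM in si-CDCP1 replicates 1, 2 and 3, and at 57.2, 60.8 and 59.0 FPKM in the si-NC libraries. The groups did not overlap, and si-CDCP1 replicate 3 was far above the others. The means were 82.4 ± 21.7 FPKM in si-CDCP1 and 59.0 ± 1.84 FPKM in si-NC (SD, n = 3 each), a ratio of 1.40. The limma log2 difference was 0.45 (SE 0.16, 95% interval 0.07 to 0.82, BH-adjusted p = 0.320).

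Without si-CDCP1 replicate 3 the Klf4 difference was smaller and its error smaller still. The mean of the other 2 si-CDCP1 libraries was 1.18 times that of si-NC, and the log2 difference was 0.24 (SE 0.038, 95% interval 0.15 to 0.33, BH-adjusted p = 0.0781 in limma). In limma voom on whole reads recovered from the FPKM, again without that library, Klf4 rose by 0.25 on the log2 scale (SE 0.042, BH-adjusted p = 0.00356), where 3.46% of 14267 genes passed. Over the 20 alternative settings the adjusted p of Klf4 ranged from 0.00356 to 0.643. Its reads numbered between 3025 and 5115 per library, so counting error (1.58% of the value in si-CDCP1) was far below the spread of the si-CDCP1 libraries (coefficient of variation 26.4%).

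Klf2, which in endothelium is induced by laminar shear stress and opposes inflammation and clotting, had the largest difference of the 10 in the other direction. The gene (ENSMUSG00000055148, mm10 chromosome 8, 72319033 to 72321656, plus strand) was at 2.44, 2.33 and 1.46 FPKM in si-CDCP1 replicates 1, 2 and 3, and at 3.67, 3.82 and 3.91 FPKM in the si-NC libraries. All si-CDCP1 values lay below all si-NC values, with replicate 3 lowest. The means were 2.07 ± 0.537 FPKM in si-CDCP1 and 3.80 ± 0.122 FPKM in si-NC (SD, n = 3 each), a ratio of 0.546. The log2 difference was -0.66 (SE 0.13, 95% interval -0.97 to -0.34, BH-adjusted p = 0.267 in limma). This scale understates the change of so low a gene, and voom on the reads gave -0.89 (SE 0.20, BH-adjusted p = 0.212), in a fit where 0.0348% of genes passed.

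By the size of its unadjusted p, Klf2 stood at place 72 of 12080 genes, and by its log2 difference at place 61 from the lowest. Without si-CDCP1 replicate 3 it stood at place 44 of 12107, with a ratio of means of 0.627 and a log2 difference of -0.50 (SE 0.068, BH-adjusted p = 0.0718 in limma). Klf2 fell in voom without that library (log2 difference -0.66, BH-adjusted p = 0.0491) and in limma with library weights on all 6 libraries (-0.54, BH-adjusted p = 0.0186), where 7.16% of genes passed. That fit gave weights of 0.60, 5.11 and 0.165 to the si-CDCP1 libraries and between 1.08 and 1.37 to the si-NC libraries, so its si-CDCP1 mean rests mostly on replicate 2. Over its 19 alternative settings the adjusted p ranged from 0.0186 to 0.643. Klf2 rested on few reads, 78, 70 and 42 in si-CDCP1 and 136, 115 and 129 in si-NC. The exact Poisson 95% intervals, which cover counting error only, reached up to 3.04 FPKM in si-CDCP1 replicate 1 and down to 3.08 FPKM in si-NC replicate 1.

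The pair of Klf4 and Klf2 can also be set against each other within a library, which removes any scaling between libraries. Klf4 was 28.6, 30.1 and 73.8 times Klf2 in FPKM in si-CDCP1, and 15.6, 15.9 and 15.1 times Klf2 in si-NC. The ratio was thus higher in all 3 si-CDCP1 libraries, also in the 2 that resembled each other. This ratio was chosen after its values were seen and has no test.

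Klf6, Klf7 and Klf5 belong with Klf2 and Klf4 to the class of KLFs known mainly to work with acetyltransferase coactivators. Klf6, an injury-induced factor, was at 17.5, 17.9 and 27.6 FPKM in si-CDCP1 and at 16.2, 17.2 and 17.1 FPKM in si-NC. The groups did not overlap, but only replicate 3 lay well above the si-NC values. The log2 difference was 0.28 (SE 0.16, BH-adjusted p = 0.440 in limma) and 0.07 (SE 0.044) without si-CDCP1 replicate 3. Klf4 kept a nearly constant ratio to Klf6 within each group, 3.99, 3.90 and 3.90 in si-CDCP1 against 3.54, 3.55 and 3.46 in si-NC, and in si-CDCP1 replicate 3 they stood at 1.70 and 1.61 times the mean of the other 5 libraries. That ratio, too, was chosen after its values were seen.

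Klf7, a factor known from neuronal development and fat cells, had the smallest spread over the si-CDCP1 libraries of the 10 (coefficient of variation 1.72%, below its counting error of 4.93%). It was at 3.03, 3.14 and 3.10 FPKM in si-CDCP1 and at 3.53, 3.94 and 3.52 FPKM in si-NC, with no overlap. The log2 difference of -0.19 (SE 0.070, 95% interval -0.35 to -0.02, BH-adjusted p = 0.320 in limma) was also -0.19 (SE 0.073) without si-CDCP1 replicate 3. Klf5, which drives smooth muscle proliferation after vessel injury and is induced by Ang II in cardiovascular cells, was low: 2.39, 1.97 and 1.76 FPKM in si-CDCP1 and 1.86, 2.56 and 2.47 FPKM in si-NC. The groups overlapped, and the log2 difference was -0.12 (95% interval -0.41 to 0.18, BH-adjusted p = 0.672 in limma), and -0.05 without si-CDCP1 replicate 3.

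**Figure D2:**
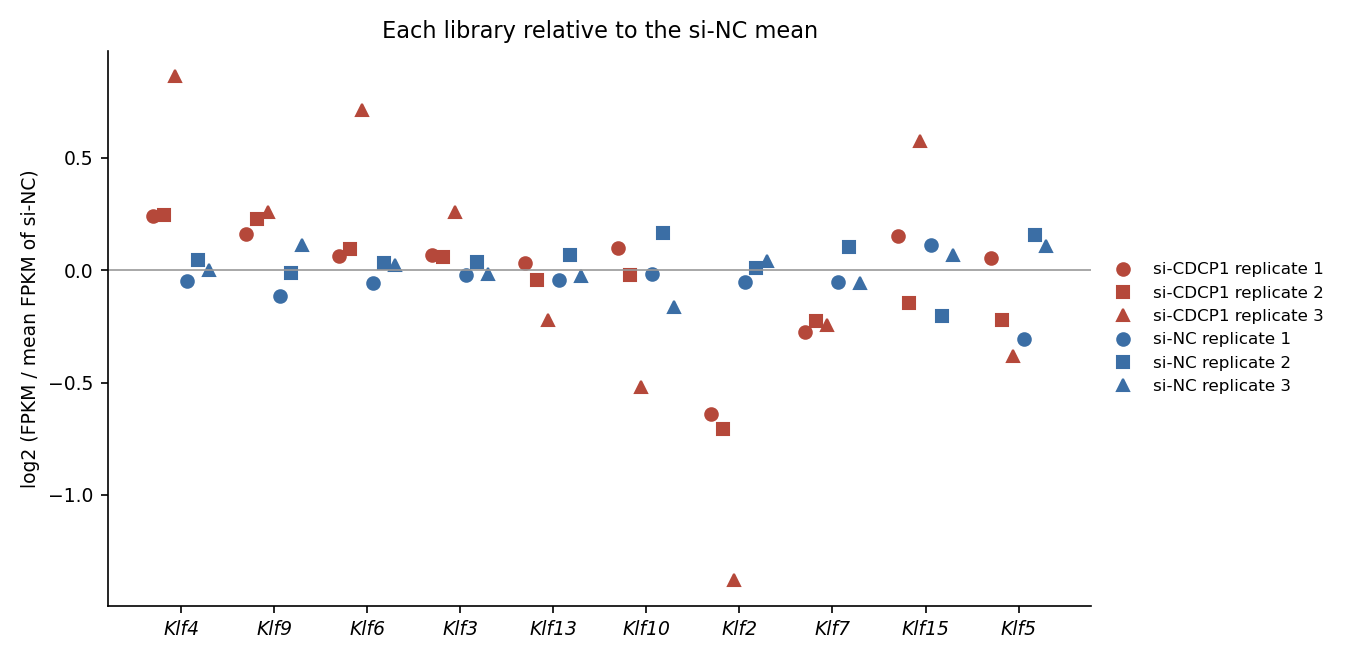
Log2 ratio of each library's FPKM to the mean FPKM of the si-NC libraries (vertical axis) for the 10 KLF genes. Triangles of si-CDCP1 (replicate 3) lie at 0.87 for Klf4 and 0.72 for Klf6, and at -1.38 for Klf2, while the other si-CDCP1 libraries lie at 0.24 each for Klf4 and at -0.64 and -0.71 for Klf2.

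Klf3 represents the KLFs that bind the corepressor CtBP, and in mice it is known to restrain fat cell and inflammatory genes. Its FPKM was 10.1, 10.0 and 11.5 in si-CDCP1 against 9.48, 9.87 and 9.51 in si-NC. The groups were separate by a narrow margin, and the log2 difference was 0.12 (SE 0.066, BH-adjusted p = 0.430 in limma), and 0.06 without si-CDCP1 replicate 3. Klf8, the other tested gene of this class, overlapped between the groups (1.59 to 2.62 FPKM in si-CDCP1, 1.60 to 1.97 FPKM in si-NC), with a log2 difference of 0.12 that turned to -0.02 without si-CDCP1 replicate 3.

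Klf9, Klf10 and Klf13 belong to the class that recruits the SIN3A corepressor. Klf9, which is induced by glucocorticoid and thyroid hormone, was at 22.9, 24.0 and 24.6 FPKM in si-CDCP1 and at 19.0, 20.4 and 22.2 FPKM in si-NC. The highest si-NC library lay just under the lowest si-CDCP1 library. Its log2 difference moved little with replicate 3, and was 0.21 (SE 0.067, 95% interval 0.05 to 0.37, BH-adjusted p = 0.298 in limma) with all 6 libraries and 0.19 (SE 0.068, adjusted p = 0.264) without it. In the fit with library weights, which rests mostly on si-CDCP1 replicate 2, its BH-adjusted p was 0.0543.

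Klf10, an early target of TGF-beta that represses growth, was at 5.93, 5.46 and 3.86 FPKM in si-CDCP1 and at 5.47, 6.21 and 4.94 FPKM in si-NC. Only si-CDCP1 replicate 3 lay below the si-NC range, and the log2 difference of -0.12 (95% interval -0.45 to 0.22) changed sign to 0.04 without it. Klf13, known from lymphocytes, where it regulates the chemokine gene Ccl5, was between 5.82 and 6.94 FPKM in si-CDCP1 and between 6.58 and 7.12 FPKM in si-NC. Its log2 difference was -0.07 (95% interval -0.24 to 0.11), and -0.0048 without si-CDCP1 replicate 3. The related Klf11 and Klf16 overlapped between the groups. Klf11 had a log2 difference of -0.01, which turned to 0.04 without si-CDCP1 replicate 3, and Klf16 one of 0.02, which was 0.03 without it.

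Klf15, a glucocorticoid-induced factor that in mice curbs growth of heart and vessel and controls amino acid breakdown, was at 2.67, 2.18 and 3.58 FPKM in si-CDCP1 and at 2.60, 2.09 and 2.52 FPKM in si-NC. The groups overlapped, with si-CDCP1 replicate 3 highest. The log2 difference was 0.15 (95% interval -0.19 to 0.49, BH-adjusted p = 0.635 in limma), and 0.01 without si-CDCP1 replicate 3. Bcat2, an enzyme of branched-chain amino acid breakdown known as a Klf15 target in muscle, was at 11.2, 9.83 and 8.59 FPKM in si-CDCP1 and at 10.3, 10.5 and 10.1 FPKM in si-NC.

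**Figure D3:**
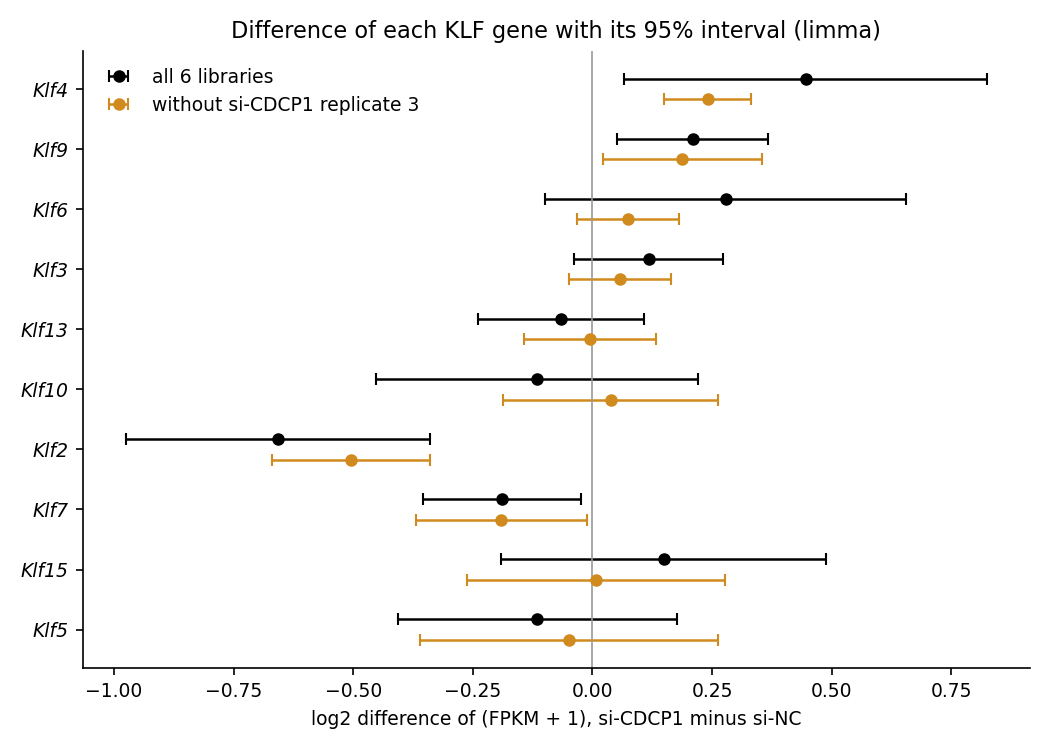
Log2 difference of FPKM + 1, si-CDCP1 minus si-NC (horizontal axis), with its limma 95% interval for each KLF gene, from all 6 libraries (black) and without si-CDCP1 replicate 3 (orange). The intervals of Klf4, Klf9, Klf2 and Klf7 lie on one side of 0 in both fits, those of the other 6 genes include 0, and the intervals are not adjusted for the number of genes.

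Counted together, 4 of the 10 members had an unadjusted p under 0.05 in limma, against 14.3% of all tested genes. Klf4 and Klf9 were higher, as were 8.94% of tested genes at that level, and Klf2 and Klf7 lower, as were 5.31%. The groups did not overlap for 6 of the 10, against 25.0% of all tested genes. Of these 6, 4 had higher and 2 lower values in si-CDCP1, against 14.4% and 10.6% of tested genes. Positive and negative log2 differences numbered 5 each, with a median of 0.03, where all tested genes had a median of 0.01 and 52.3% were positive. Without si-CDCP1 replicate 3 the same 4 genes had an unadjusted p under 0.05 (16.5% of all genes) and the same 6 were separate (36.0%). That library held the highest of the 6 values for 5 members, which were Klf3, Klf4, Klf6, Klf9 and Klf15, against 34.0% of tested genes. It was more than 1.5-fold above the mean of the other 5 for 2, Klf4 and Klf6, against 2.91% of tested genes.

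The order of the levels in si-NC was Klf4, Klf9, Klf6, Klf3, Klf13, Klf10, Klf2, Klf7, Klf15 and Klf5, all in FPKM and so per length. Klf4 lay above 94.6% of the 10490 tested protein-coding genes by its mean FPKM over the 6 libraries, and Klf5 above 10.0%. The labels name rat and the genes are mouse, so the order of different genes in FPKM need not be their order in abundance. Between neighbours in that order, the ranges over the si-NC libraries overlapped for Klf2 and Klf7 and for Klf15 and Klf5. In si-CDCP1, Klf2 lay below Klf7 with no overlap, its range overlapped those of Klf15 and Klf5, and that of Klf15 took in Klf7. The si-CDCP1 ranges of Klf9 and Klf6 and those of Klf13 and Klf10 overlapped as well.

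Klf4 made up 48.6%, 48.7% and 56.4% of the summed FPKM of the 10 genes in si-CDCP1, and 45.6%, 45.4% and 44.8% in si-NC. Its share was thus higher in every si-CDCP1 library, and such a share does not depend on the scaling between libraries. Klf2 made up 1.70%, 1.62% and 0.764% in si-CDCP1 against 2.92%, 2.85% and 2.96% in si-NC. The shares of Klf3, Klf7 and Klf13 were also lower in every si-CDCP1 library, Klf3 although its FPKM was higher and Klf13 although its FPKM overlapped. Shares of 1 sum are tied together, so a higher share of Klf4 lowers those of other members. The sum itself was 143.8, 143.5 and 190.7 FPKM in si-CDCP1 and 125.5, 134.0 and 131.8 FPKM in si-NC, and most of its difference was Klf4.

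**Figure D4:**
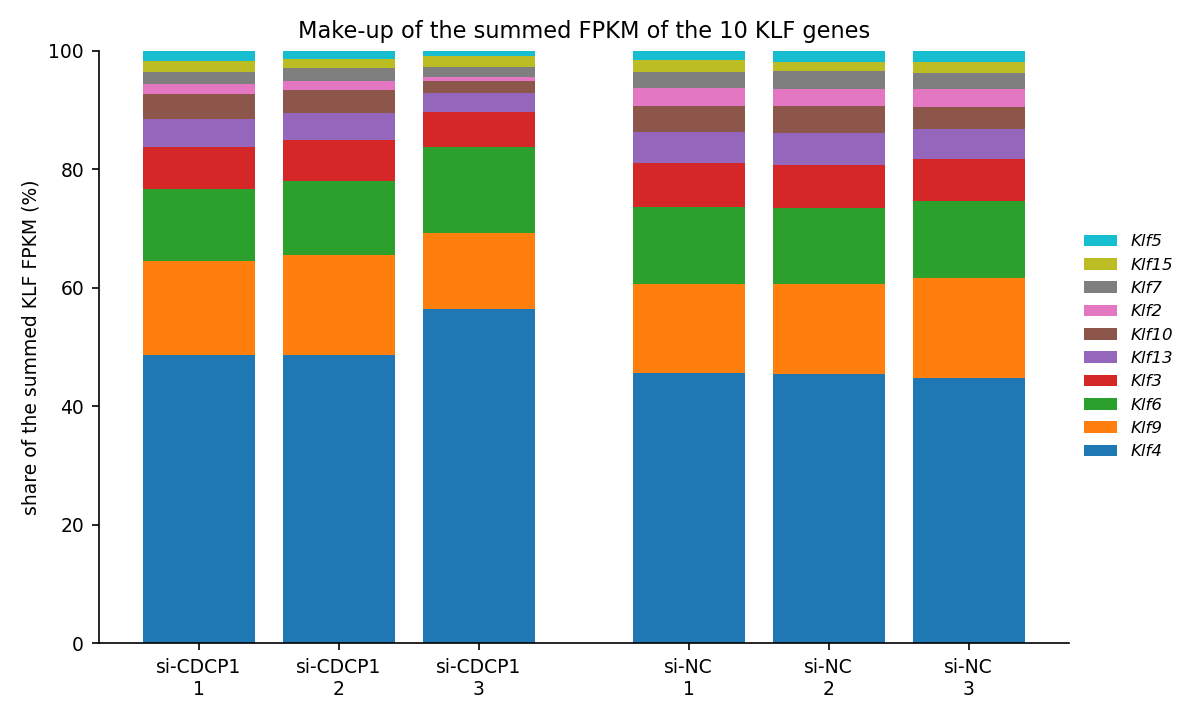
Share of each gene in the summed FPKM of the 10 KLF genes (vertical axis, percent) in the 3 si-CDCP1 and the 3 si-NC libraries. Klf4, at the bottom, takes 48.6% to 56.4% in si-CDCP1 and 44.8% to 45.6% in si-NC, and the Klf2 band is thinnest in si-CDCP1 replicate 3 at 0.764%.

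The tested genes whose pattern over the 6 libraries was nearest to that of Klf4 were Gdnf, Mettl1, Adamts1, Kit and Sqle, of 10489 protein-coding genes compared. The root mean square distance between their centred log2(FPKM + 1) values and those of Klf4 was 0.032, 0.034, 0.043, 0.043 and 0.045, where Klf4 itself varied by 0.30. Gdnf, a neurotrophic growth factor, was at 13.2, 13.5 and 20.0 FPKM in si-CDCP1 and at 10.6, 11.0 and 11.3 FPKM in si-NC, and was highest in the same library as Klf4. Klf6 was the nearest KLF gene, at place 33 with a distance of 0.085, followed by Klf15 at place 909.

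Genes around the KLFs were taken from lists, and none of their members passed over all genes in limma with all 6 libraries and no library weights. With library weights, where 7.16% of all tested genes passed, Lgals3 was higher (BH-adjusted p = 0.0321 in limma). In that fit Egr1, Kat2b and Pdgfra were lower (BH-adjusted p = 0.0263, 0.0378 and 0.0497 in limma). Of 7 other KLF genes 3 were tested (Klf8, Klf11 and Klf16), and Klf1 and Klf12 averaged under 1 FPKM, while Klf14 and Klf17 had 0 reads in every library. Of the 9 SP factors, the nearest relatives of the KLFs, Sp1, Sp2 and Sp3 were tested. Sp1 was between 29.6 and 33.1 FPKM in si-CDCP1 and between 30.3 and 30.7 FPKM in si-NC, and Sp3 between 29.6 and 37.6 FPKM against 29.1 to 30.9 FPKM. Sp2 was between 8.01 and 9.16 FPKM against 8.97 to 9.40 FPKM, with a log2 difference of -0.08, and -0.12 without si-CDCP1 replicate 3. Without that library 1 SP gene was positive and 2 were negative, and Sp1 and Sp2 were separate and lower. Of all genes 36.0% were then separate in either direction. None of these 6 genes had an unadjusted p under 0.05.

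The ERK5 and MEF2 route, which induces Klf2 and Klf4 together in endothelium, had 10 tested genes, of which 4 were positive and 6 negative (median -0.03), with none at an unadjusted p under 0.05 in limma. Mapk7, which encodes ERK5, was at 8.29, 8.25 and 7.32 FPKM in si-CDCP1 and at 7.64, 8.63 and 8.53 FPKM in si-NC. Hdac7, a class II deacetylase that holds MEF2 in check, had a log2 difference of -0.20 (BH-adjusted p = 0.395 in limma), and Hdac5 one of -0.29. Hdac4, of the same list, went the other way, with higher values in every si-CDCP1 library and a log2 difference of 0.07. Leaving out si-CDCP1 replicate 3 made these -0.09 for Hdac7, -0.06 for Hdac5 and 0.06 for Hdac4. Of 13 KLF corepressors and coactivators, 1 was higher and 1 lower at an unadjusted p under 0.05: Sap30, a SIN3A complex subunit, at 0.18, and the nuclear receptor corepressor gene Ncor1 at -0.12. These 2 of 13 are near the 14.3% of all tested genes. Without si-CDCP1 replicate 3 the list had 0 higher and 2 lower, where 16.5% of all genes were at that level in either direction. Of 8 ubiquitin ligases that act on KLF proteins, 1 reached that level, no larger a share than among all genes. It was Btrc, with a log2 difference of -0.22, which was -0.15 (unadjusted p = 0.105 in limma) without si-CDCP1 replicate 3, and Vhl was at 0.13.

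Among 6 tested genes of the serum response factor group, through which KLF4 acts on contractile genes, 5 were negative (median -0.10). Of all tested genes 52.3% were positive. Elk3, a repressive partner of serum response factor, was at 9.09, 9.51 and 7.39 FPKM in si-CDCP1 and at 10.7, 10.6 and 10.4 FPKM in si-NC. Its log2 difference was -0.26 (BH-adjusted p = 0.306 in limma), and -0.16 without si-CDCP1 replicate 3. Only Elk3 of this group had an unadjusted p under 0.05 in limma, where 5.31% of all tested genes were lower. Elk4 had a log2 difference of -0.15. With si-CDCP1 replicate 3 left out, 4 of the 6 were negative and their median was -0.05. Srf itself was at 19.2, 18.3 and 14.9 FPKM in si-CDCP1 and at 17.7, 18.9 and 17.7 FPKM in si-NC. Its log2 difference of -0.06 turned to 0.05 without si-CDCP1 replicate 3. Myocd, the muscle-specific cofactor, averaged under 1 FPKM. All 3 tested contractile genes, Acta2, Smtn and Cald1, had positive log2 differences (0.27, 0.08 and 0.11), and all were highest in si-CDCP1 replicate 3. Without that library they were 0.02, -0.02 and 0.04.

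Of 16 genes reported elsewhere as KLF targets or partners, 13 were tested, 4 positive and 9 negative (median -0.06), with 1 higher and 3 lower at an unadjusted p under 0.05 in limma, against 8.94% and 5.31% of all tested genes. Without si-CDCP1 replicate 3 they were 7 positive and 6 negative (median 0.0055), with 1 higher and 1 lower at that level. Over all genes that fit had 16.5% at that level, both directions together. Lgals3, which encodes the lectin galectin-3 of switched smooth muscle cells, was at 90.7, 87.9 and 128 FPKM in si-CDCP1 and at 70.2, 68.0 and 73.9 FPKM in si-NC. Its log2 difference was 0.51 (SE 0.14, BH-adjusted p = 0.273 in limma). It rose in voom without si-CDCP1 replicate 3 (BH-adjusted p = 0.000616), where 3.46% of 14267 genes passed. Egr1, an immediate early factor known to act upstream of Klf5 in smooth muscle, was at 20.0, 18.2 and 22.2 FPKM in si-CDCP1 and at 24.9, 27.5 and 22.6 FPKM in si-NC. Its log2 difference was -0.30 (SE 0.094, BH-adjusted p = 0.298 in limma), and it fell in that voom fit (BH-adjusted p = 0.00551). Nos3 and Thbd, the endothelial targets of KLF2 and KLF4, averaged below 0.1 FPKM in si-CDCP1 and in si-NC. Of 6 tested glucocorticoid response genes, listed because Klf9 and Klf15 answer to that hormone, 4 were positive and 2 negative, with a median of 0.08. Dusp1 alone had an unadjusted p under 0.05 in limma (log2 difference 0.15), where 8.94% of all tested genes were higher at that level. Tsc22d3 was at 0.15. No member of that list, without si-CDCP1 replicate 3, had an unadjusted p under 0.05, and the median was 0.03.

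Markers of other cell types were measured beside the KLF values, since Klf2 and Klf4 are also genes of endothelium and blood cells. In bulk cultures fewer cells of a type and less RNA per cell cannot be told apart. Of 7 macrophage and blood cell markers, Adgre1 and Itgam had 0 reads in every library, and the summed FPKM was between 14.8 and 16.2 in si-CDCP1 and between 13.8 and 16.1 in si-NC, mostly Cd14. Within that list Cd68 was lower in every si-CDCP1 library (0.822 FPKM on average, against 1.27 in si-NC, unadjusted p = 0.0164 in limma) and Lyz2 higher in every one (2.11 FPKM, against 1.65 in si-NC, unadjusted p = 0.0405 in limma). Both rest on few reads, between 14 and 54 per library. The sum of 7 fibroblast markers was between 275.2 and 310.1 FPKM in si-CDCP1 and between 277.0 and 310.4 FPKM in si-NC, nearly all Col1a1. Pdgfra was lower in every si-CDCP1 library (8.69 FPKM on average, against 10.4 in si-NC, unadjusted p = 0.0239 in limma, BH-adjusted p = 0.0497 with library weights). The sum of 6 adipocyte markers was between 12.2 and 18.6 FPKM in si-CDCP1 and between 9.34 and 11.9 FPKM in si-NC, without overlap. Adipoq, Cidec and Lep had 0 reads in every library, and that sum was nearly all Lpl and Fabp4. Both were higher in every si-CDCP1 library, with log2 differences of 0.42 and 0.39 (unadjusted p = 0.0348 and 0.0168, BH-adjusted p = 0.329 and 0.298 in limma). At that unadjusted level 8.94% of all tested genes were higher. Without si-CDCP1 replicate 3 the differences were 0.24 and 0.32 (unadjusted p = 0.0399 and 0.0498 in limma). The sum of 6 epithelial markers was at most 0.218 FPKM in si-CDCP1 and 0.137 FPKM in si-NC. The part of the adipocyte markers, and of Pdgfra, Cd68 and Lyz2, in the KLF values was not tested.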

How the data were processed

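The authors deposited FPKM for 54012 mouse genes in 6 libraries, with gene lengths, per the file headers; the build is mm10 per the submitters' processing notes. For the aligner, the counter and the strand setting, nothing is given in the sources used here. Every deposited FPKM above 0, multiplied by gene length, was a whole multiple of 1 step per library (tolerance 0.01), which gave the reads. The implied totals equal median-of-ratios size factors, so the values were already scaled between libraries.

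The 12080 genes averaging 1 FPKM or more over the libraries were tested on log2(FPKM + 1) with limma 3.58.1 in R 4.3.3 (intensity trend, two-sided, BH adjustment over all tested genes). All 10 KLF genes passed this filter. Library weights were limma's arrayWeights. Limma voom used the implied totals and genes that had 10 or more reads in 3 or more libraries. Tests were checked on simulated data in which all libraries had the same spread beyond counting error and none stood apart. Their behaviour with a library such as si-CDCP1 replicate 3 was not tested. The same-numbered libraries were not treated as pairs.

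The members, lists and alternatives were chosen with earlier results of these data known. The rule for named genes takes every KLF and SP gene tested and up to 4 markers per cell type. From each other list it takes the 2 members lowest in p if none passes. Mapk7, Hdac4, Kat2b, Srf, Myocd, Bcat2, Nos3 and Thbd, and some of the markers, were named outside that rule. Overlapping genes in the table averaged at most 0.260 FPKM beside Klf3 and Klf13; those beside Klf7 and Klf9 were at most 1.34 FPKM, in microRNA genes. Strand was not known, so reads of antisense partners cannot be told apart.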

Additional observations from a re-analysis of the deposited data

How the results depend on the processing

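Klf2, Klf3, Klf4, Klf5, Klf6, Klf7, Klf9 and Klf13 kept their direction under each of the 20 alternatives that could be fitted. With a filter of 5 FPKM, Klf2, Klf5, Klf7 and Klf15 were below the filter and not tested. Of 196 member values under alternatives, 3 had the other sign: Klf10 at 0.0380 without si-CDCP1 replicate 3 (-0.217 to 0.0380 with any 1 library left out) and at 0.0525 in voom without that library, and Klf15 at -0.0707 with library weights. The count of members called was 0 except for 1 (Klf2) with library weights and 2 (Klf4 and Klf2) in voom without si-CDCP1 replicate 3. Over all genes the count, 0 in limma, was 7 with no filter, 4 with a filter of 5 FPKM, 1 with equal FPKM sums, 1 with the median log ratio, 2 with quantile normalisation, 865 with library weights, 2 with protein-coding genes, 3 with the length trend removed, 5 in voom, 493 in voom without si-CDCP1 replicate 3, and 0 to 1 with any 1 library left out; the cause was not tested. The log2 difference of Klf4 was between 0.24 and 0.55 with 1 library left out, that of Klf6 between 0.07 and 0.39, and that of Klf2 between -0.75 and -0.50.

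With the replicate number as a block 1 gene and 0 members were called. Deviations of same-numbered libraries correlated between -0.02 and 0.03, and 1 of 3 si-CDCP1 libraries correlated best with its own number, so the numbers were not taken as pairs. Klf2, with 42 to 136 reads per library, and Klf15, with 95 to 156, were limited most by depth.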

Other observations

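The deposited table assigns 717 genes to the zf-C2H2 family of zinc finger factors, the 10 KLF genes among them. Of the other 350 tested members, 9 were higher and 14 lower in si-CDCP1 at an unadjusted p under 0.05 in limma, against 8.94% and 5.31% of all tested genes, and none passed after BH adjustment. Their median log2 difference was -0.02, and the groups were separate for 18 with higher and 31 with lower values in si-CDCP1, against 14.4% and 10.6% of all tested genes.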
